A study of Mus musculus with 17 samples.

Results

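The 10 genes described here mark a pair of neighbouring nephron segments in mouse kidney cortex: 5 of the thick ascending limb (Umod, Slc12a1, Kcnj1, Cldn16 and Cldn10) and 5 of the distal convoluted tubule (Slc12a3, Pvalb, Calb1, Trpm6 and Wnk1). They were taken by symbol from the 48795 genes in the count table, and the question was how their levels vary over the 4 groups of animals and whether they vary as 1 block. The thick ascending limb reabsorbs sodium chloride through the furosemide-sensitive cotransporter Slc12a1, recycles potassium through Kcnj1, and passes calcium and magnesium between cells through claudin pores. The distal convoluted tubule reabsorbs sodium chloride through the thiazide-sensitive cotransporter Slc12a3, which the WNK kinases control, and takes up calcium and magnesium through its cells. Neither segment was the target of the knockout, since the Cre transgene of this study is driven by the Ggt1 promoter, which is active in proximal tubules.

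The 17 cortices fell into 4 labelled groups. WT (n = 5) were wild type mice, and GCERAd (n = 5) were Ggt/CreER TG/TG; ATF4 fl/fl mice given tamoxifen at 6 weeks of age on 2 consecutive days, with tissue taken about a month later after a fast of 16 h. TRACK (n = 3) carried the transgenic model of kidney cancer of that name, and GCERAdT (n = 4) combined TRACK with the ATF4 KO. The transgene, age and treatment of the TRACK and GCERAdT mice, and whether WT mice had tamoxifen, are not given in the sources used here.

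RefSeq promoter windows, from 250 bases before to 50 after a transcription start (GRCm38.p6), were found for 9 of the 10 genes and not for Calb1. Those of the genes on which the comparisons turn are printed below 5′ to 3′ on the gene's own strand: Umod, Slc12a1 and Kcnj1 with their segment's sodium chloride uptake, Cldn10, which moved apart from them, and Slc12a3. Cldn10 has a pair of starts, which give the claudin-10a and claudin-10b forms. The letters AGAACA (core of the steroid receptor site) and TGATGNAA (the C/EBP-ATF element bound by ATF4), read on both strands, are in capitals.
Umod, chr7:119479213-119479512, minus strand: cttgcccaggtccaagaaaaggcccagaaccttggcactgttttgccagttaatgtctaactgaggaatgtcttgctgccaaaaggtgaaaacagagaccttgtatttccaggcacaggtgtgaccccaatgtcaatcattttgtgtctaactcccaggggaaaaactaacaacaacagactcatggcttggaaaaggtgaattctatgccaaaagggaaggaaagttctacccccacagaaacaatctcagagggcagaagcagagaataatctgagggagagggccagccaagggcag
Slc12a1, chr2:125152350-125152649, plus strand: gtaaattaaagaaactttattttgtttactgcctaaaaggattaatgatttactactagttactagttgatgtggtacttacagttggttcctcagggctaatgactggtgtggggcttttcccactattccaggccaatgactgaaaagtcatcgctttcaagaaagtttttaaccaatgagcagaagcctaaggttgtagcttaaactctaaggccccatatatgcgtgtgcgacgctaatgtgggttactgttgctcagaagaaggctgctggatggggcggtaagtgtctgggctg
Kcnj1, chr9:32393735-32394034, plus strand: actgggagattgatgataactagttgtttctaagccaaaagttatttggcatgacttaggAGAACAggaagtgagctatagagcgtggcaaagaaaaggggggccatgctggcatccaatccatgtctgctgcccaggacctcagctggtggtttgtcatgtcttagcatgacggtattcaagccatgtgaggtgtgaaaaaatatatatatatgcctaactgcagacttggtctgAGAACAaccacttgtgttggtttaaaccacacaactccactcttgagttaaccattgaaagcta
Cldn10, upstream start, chr14:118787621-118787920, plus strand: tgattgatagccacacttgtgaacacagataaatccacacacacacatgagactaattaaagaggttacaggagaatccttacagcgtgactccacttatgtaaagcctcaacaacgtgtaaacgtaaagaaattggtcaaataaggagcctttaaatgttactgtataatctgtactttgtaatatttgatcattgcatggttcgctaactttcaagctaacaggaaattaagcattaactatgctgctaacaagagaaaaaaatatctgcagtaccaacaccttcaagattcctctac
Cldn10, downstream start, chr14:118854700-118854999, plus strand: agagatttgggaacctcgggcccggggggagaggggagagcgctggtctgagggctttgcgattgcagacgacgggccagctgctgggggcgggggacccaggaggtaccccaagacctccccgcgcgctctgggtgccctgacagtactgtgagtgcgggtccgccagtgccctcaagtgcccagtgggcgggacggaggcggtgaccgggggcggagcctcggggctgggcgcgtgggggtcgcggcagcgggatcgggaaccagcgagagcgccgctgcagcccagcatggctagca
Slc12a3, chr8:94328958-94329257, plus strand: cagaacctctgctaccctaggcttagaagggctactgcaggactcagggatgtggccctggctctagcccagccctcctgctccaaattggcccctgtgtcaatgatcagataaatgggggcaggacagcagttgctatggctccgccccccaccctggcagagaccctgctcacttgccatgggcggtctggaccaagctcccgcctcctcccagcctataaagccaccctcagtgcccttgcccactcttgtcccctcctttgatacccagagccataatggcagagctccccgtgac

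AGAACA was found in 3 of the 11 member windows, with 2 matches in the Kcnj1 window and 1 each in those of Cldn16 and Pvalb, against 19.0% of all 32851 promoter windows. TGATGNAA was found in 0 of 11 and in 3.97% of all windows. In the same build (GENCODE M21), the members whose windows are not printed span chr16:26463135-26482765 (Cldn16, plus strand), chr15:78191114-78206400 (Pvalb, minus), chr4:15881264-15908064 (Calb1, plus), chr19:18749983-18892511 (Trpm6, plus) and chr6:119923969-120038672 (Wnk1, minus). No motif overlapped another in these windows. A match here is a description of letters only.

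Several features of the libraries bear on all comparisons. Total counts ran from 53688512 to 71364561. The share of counts in processed pseudogenes fell into separate ranges, 0.032 to 0.038% in 8 libraries (WT 1, 3, 4 and 5, GCERAd 1 and 2, GCERAdT 1 and 2) and 0.0574 to 0.0784% in the other 9, among them all 3 TRACK libraries. These are called low-share and high-share libraries below. Whether the split goes with sequencing run or read length was not tested. All 5 WT libraries held Xist at 149 to 418 CPM (counts scaled to library size) with Ddx3y, Eif2s3y and Uty at 0 counts, whereas in the 3 other groups Xist was at most 6.08 CPM and Ddx3y at least 49.8 CPM. Sex and the group label therefore cannot be told apart in any comparison that uses WT. Atf4, the targeted gene, was 84.5 ± 9.8 CPM (SD) in WT and 65.4 ± 9.3 in GCERAd, and in the libraries labelled GCERAdT, at 79.6, 93.1, 92.8 and 104 CPM, it was not lower than in TRACK, at 93.8, 79.8 and 77.2 CPM. Counts over a whole gene in whole cortex do not show which cells or exons lost it. The labels number a mouse for each sample, but their protocol speaks of 3 to 4 mice per cohort where up to 5 samples are listed, and the study's sequencing summary gives some sample names both with and without a suffix letter. The number of separate mice may thus be below n. GCERAd 2 and 3 shared the fat cell transcript Adipoq (4.93 and 3.88 CPM, the other GCERAd at most 0.106), and WT 1 and 2 shared the urothelial Psca (9.08 and 8.69 CPM, above the other 3 WT). These pairs were kept as separate samples and summed as an alternative.

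Per unit of length, Umod stood far above the other 9 genes in WT, at 1541 ± 295 FPKM (SD, n = 5, counts scaled to library size and gene length), rank 14 of 48435 genes. Slc12a1 followed at 283 ± 63.0 FPKM and Kcnj1 at 109 ± 12.8. Calb1 (79.6 ± 11.4 FPKM), Cldn10 (68.9 ± 11.7) and Slc12a3 (52.3 ± 8.28) came next, and the mean ± SD ranges of neighbours in this run overlapped. Wnk1 was at 23.0 ± 3.83 FPKM, Pvalb at 16.3 ± 2.59 and Cldn16 at 13.1 ± 1.23, the last pair again overlapping within their SDs. Trpm6 was lowest at 2.45 ± 0.452 FPKM, rank 8800. All 10 genes passed the expression minimum of 1 FPKM in every comparison, and the lowest count of any member in any library was 389, for Trpm6. The values below are CPM and are compared between samples, not between genes.

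Umod encodes uromodulin, the most abundant protein of normal urine. It was 4112, 4382, 5584, 3636 and 3573 CPM in WT 1 to 5 and 2912, 2552, 2718, 3694 and 3397 in GCERAd 1 to 5. TRACK gave 2761, 3645 and 5108 CPM and GCERAdT 2986, 3115, 3271 and 3513. WT 3 was the highest sample, GCERAd 4 alone of its group lay within the WT range, and the 3 TRACK samples spread over nearly the whole range of the others. Umod shares 539 exonic bases with the antisense gene Gm44588, which held 1116 counts over all samples; the kit is stranded but the strand setting of the counting is not stated.

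Slc12a1 (NKCC2) was 1368, 1443, 2232, 1396 and 1702 CPM in WT and 1072, 796, 855, 975 and 937 in GCERAd. It was 704, 1368 and 913 CPM in TRACK and 1041, 1224, 1274 and 1076 in GCERAdT. Every WT sample lay above every GCERAd and GCERAdT sample, and TRACK 2, which the unrounded values place just below WT 1, stood apart from the other TRACK samples.

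Kcnj1 (ROMK) returns potassium to the tubule lumen, which keeps the cotransporter supplied. It was 317, 329, 417, 353 and 395 CPM in WT and 216, 193, 203, 183 and 173 in GCERAd. TRACK gave 133, 152 and 163 CPM and GCERAdT 174, 230, 234 and 179. The WT samples lay above all 12 others, and all 3 TRACK samples lay below all 4 GCERAdT samples.

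Cldn16 encodes a claudin needed for the paracellular uptake of magnesium and calcium. It was 15.0, 14.3, 17.8, 15.6 and 14.2 CPM in WT and 11.7, 11.7, 14.9, 8.85 and 11.2 in GCERAd. TRACK gave 7.78, 9.18 and 7.47 CPM and GCERAdT 11.3, 11.8, 12.2 and 11.0. GCERAd 3 alone reached the WT range, and the TRACK samples lay below all GCERAdT and WT samples.

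Cldn10 encodes claudin-10, whose 10b form makes the sodium pore of the thick ascending limb and whose 10a form is known from the proximal tubule; gene counts do not separate them. It was 173, 198, 219, 144 and 159 CPM in WT and 164, 145, 170, 181 and 167 in GCERAd. TRACK gave 141, 170 and 139 CPM and GCERAdT 187, 217, 239 and 217. WT, GCERAd and TRACK overlapped, and GCERAdT was the group with the highest mean, above all GCERAd and TRACK samples and overlapping WT.

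Slc12a3 (NCC) was 570, 522, 483, 721 and 613 CPM in WT and 436, 464, 421, 417 and 342 in GCERAd. TRACK gave 294, 220 and 339 CPM and GCERAdT 503, 391, 352 and 362. WT 4 was highest, the WT samples lay above all GCERAd and TRACK samples, and GCERAdT 1 lay within the WT range.

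Pvalb encodes parvalbumin, a calcium-buffering protein of the early distal convoluted tubule. It was 14.6, 19.2, 17.2, 20 and 14.0 CPM in WT and 15.2, 18.1, 19.4, 16.3 and 9.22 in GCERAd. TRACK gave 7.63, 7.08 and 7.58 CPM and GCERAdT 16.4, 16.3, 18 and 10.6. The TRACK samples, which differed little among themselves, lay below all other samples.

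Calb1 encodes calbindin-D28k, which carries calcium across the cells of the late distal convoluted and connecting tubules. It was 332, 370, 344, 463 and 421 CPM in WT and 324, 306, 344, 183 and 169 in GCERAd. TRACK gave 224, 180 and 269 CPM and GCERAdT 251, 204, 249 and 178. GCERAd fell into a higher set (samples 1 to 3) and a lower set (samples 4 and 5), the higher reaching the lowest WT values and the lower lying beside TRACK and GCERAdT.

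Trpm6, the apical magnesium channel, was 19.7, 15.7, 16.7, 24.6 and 17.9 CPM in WT and 11.1, 11.6, 13.3, 13.0 and 15.0 in GCERAd. It was 10.7, 6.83 and 13.9 CPM in TRACK and 14.8, 12.3, 11.3 and 7.53 in GCERAdT. All WT samples lay above the 12 others, though by little for WT 2, and the other groups overlapped.

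Wnk1 encodes a kinase found in most cells and, from a start within the gene, a short kidney form of the distal convoluted tubule; gene counts pool both. It was 498, 457, 471, 674 and 520 CPM in WT and 486, 515, 493, 453 and 403 in GCERAd. TRACK gave 398, 362 and 456 CPM and GCERAdT 500, 457, 412 and 350. WT 4 stood above the rest, and the remaining samples ran together across groups, although every TRACK sample was below every WT sample.

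**Figure D1:**
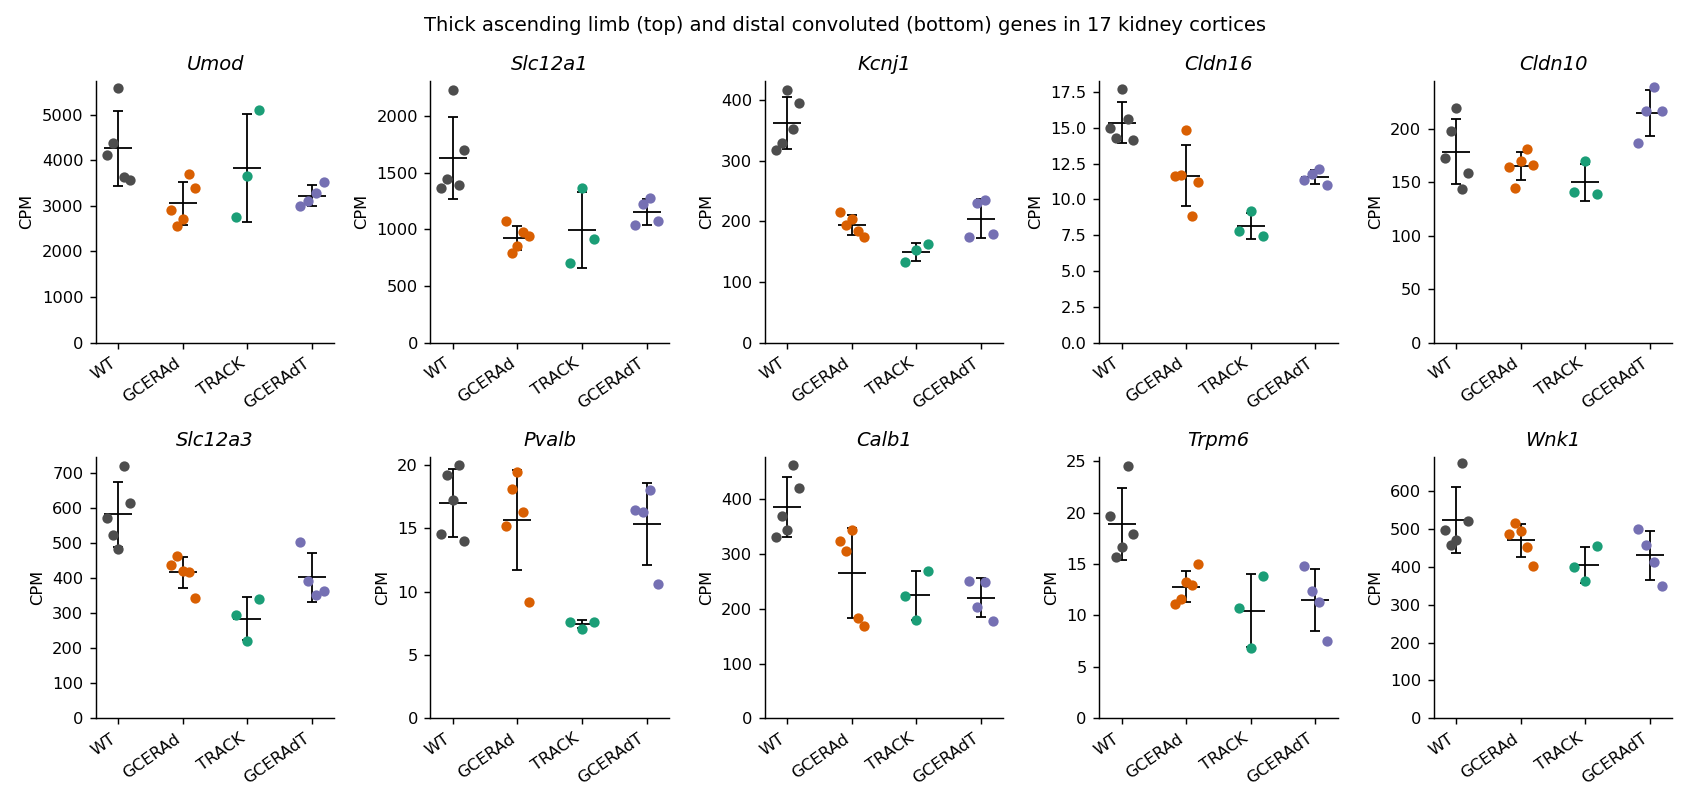
CPM of the 10 genes in each of 17 samples by group, each point a sample, with the mean (bar) and SD (whiskers); each y axis starts at 0. WT lay above the other groups for Kcnj1, Slc12a1 and Trpm6, while Pvalb was lowest in TRACK and Cldn10 was highest in GCERAdT.

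GCERAd against WT asks what went with the proximal tubule ATF4 KO. Thick ascending limb transport genes were lower in GCERAd, with Kcnj1 at 1.88-fold and Slc12a1 at 1.76-fold lower, and of the distal convoluted genes Trpm6 was 1.49-fold and Slc12a3 1.41-fold lower. In the edgeR quasi-likelihood fit, adjusted over 11581 genes by the Benjamini-Hochberg method, 6 of the 10 genes fell and 0 rose (0 also at an unadjusted p of 0.05 and by DESeq2), where 13.5% of all genes tested were called lower. The 4 named above did not overlap with WT, against 9.54% of all genes tested that lay wholly lower. The members' median log2 fold change was -0.49, against -0.00051 over all genes.

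In the thick ascending limb set, the log2 fold change was -0.91 for Kcnj1 (SE 0.095, adjusted p = 4.69e-05) and -0.82 for Slc12a1 (SE 0.14, adjusted p = 0.00131). Umod fell by 0.49 (SE 0.143, adjusted p = 0.0251) and Cldn16 by 0.40 (SE 0.127, adjusted p = 0.0347) on the log2 scale. Cldn10 gave -0.12 (SE 0.108, adjusted p = 0.445). In the distal convoluted set, Trpm6 fell by 0.57 (SE 0.128, adjusted p = 0.00627) and Slc12a3 by 0.49 (SE 0.122, adjusted p = 0.0111). Calb1 gave -0.55 with a wide error (SE 0.207, adjusted p = 0.071), Wnk1 -0.17 (adjusted p = 0.329) and Pvalb -0.13 (adjusted p = 0.65). Umod lost its call without WT 1, WT 3, GCERAd 2 or GCERAd 3 (adjusted p 0.0507 to 0.0601), and Cldn16 without any of WT 1, 3 and 4 and GCERAd 1, 2, 4 and 5 (adjusted p 0.0568 to 0.0838). Umod also lost it with the possible repeat libraries summed (adjusted p = 0.0918), and Cldn16 with the pseudogene share as a covariate (adjusted p = 0.0676). Cldn16 was not called either without both GCERAd 4 and 5 (adjusted p = 0.0985), and Calb1 was called without GCERAd 3 (adjusted p = 0.0438) and by DESeq2 (adjusted p = 0.0217). Within the low-share libraries (2 GCERAd, 4 WT) the mean log2 differences were -0.85 for Kcnj1, -0.83 for Slc12a1, -0.75 for Trpm6, -0.61 for Umod, -0.40 for Cldn16 and -0.39 for Slc12a3. Within the high-share ones (3 GCERAd, 1 WT) they were -0.82, -0.65, -0.19, -0.43, -0.32 and -0.41 in the same order, and in a fit of those 4 libraries alone none of the 6 was called (adjusted p 0.127 to 0.695).

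Other genes of the same segments and pathways, 85 in 7 lists, fell more often than they rose. Of the 74 tested, 35 fell and 7 rose, with a median log2 fold change of -0.27, where 13.5% of all genes fell and 14.1% rose. Among thick ascending limb transport genes 10 of 17 fell and 1 rose, and among its identity genes (transcription factors and secreted proteins) 11 of 17 fell and 2 rose. Among the steepest falls were Cldn19, the partner of claudin-16 (-1.29), and the transcription factors Sim2 (-1.16) and Esrrb (-0.97). The prostaglandin receptor gene Ptger3 also fell (-0.96). In the distal convoluted tubule, 6 of 10 identity genes and 1 of 7 magnesium genes fell, and 0 of either list rose. Of 7 calcium genes 2 fell and 2 rose, and of the WNK network 6 of 16 fell and 2 rose. Among those that rose most were Tsc22d3 (0.65), Kl (0.54), Vdr (0.47) and Nr3c1 (0.42), all regulators or receptors found also outside these segments. Kl and Vdr are the calcium genes that rose. Kl was 768 to 820 CPM in GCERAd 1 to 3, but 469 and 446 in GCERAd 4 and 5, against 400 to 510 in WT.

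Markers of other tubule cells moved in the same comparison. All 6 principal cell markers fell, their summed level being 311 to 538 CPM in GCERAd against 802 to 957 in WT, and 4 of 6 intercalated cell markers fell, the sums being 233 to 261 against 295 to 345 CPM. Of the medullary markers 2 of 8 fell, with sums of 169 to 273 CPM against 241 to 466, and 5 of 8 late proximal tubule markers rose, with sums of 2621 to 5535 against 1065 to 2266 CPM. None of the 6 principal or 6 intercalated markers was below 1 CPM in either group, but 1 of 8 late proximal markers in WT and 1 of 10 medullary markers in GCERAd were. The late proximal rise was uneven: Slc7a13 (log2 fold change 9.78), Cyp7b1 (6.54) and Slc22a30 (5.20) led it. Slc22a7 (-0.29), Slc22a19 (-0.62) and Slc5a1 (-0.05) were not called. Slc7a13, Cyp7b1 and Slc22a30 were also higher in TRACK than in WT (8.40, 6.69 and 4.24). In GCERAdT against TRACK, which does not use WT, none of these genes was called (0.50, 0.47 and 0.33). Sex goes with the WT label, and its part in their rise was not tested. The part of all these markers in the result was not tested. In bulk cortex, fewer cells of a segment and less RNA per cell cannot be told apart.

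TRACK against WT compares the cancer model with wild type mice, and shares the WT samples with the comparison above. The distal convoluted genes were all lower in TRACK, led by Pvalb at 2.29-fold and Slc12a3 at 2.05-fold, and the largest change of the thick ascending limb set was again that of Kcnj1, 2.43-fold lower. By edgeR 8 of the 10 genes fell and 0 rose (0 also at an unadjusted p of 0.05 and by DESeq2), where 22.6% of 11967 genes tested were called lower in a comparison in which 45.6% were called in either direction. The same 8 genes did not overlap with WT, against 21.6% of all genes. The median was -0.82 over the members and -0.01 over all genes.

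The log2 fold changes in TRACK were -1.28 for Kcnj1 (SE 0.11, adjusted p = 1.82e-05, edgeR), -1.20 for Pvalb (SE 0.136, adjusted p = 0.000106) and -1.03 for Slc12a3 (SE 0.163, adjusted p = 0.000732). Cldn16 fell by 0.92 (SE 0.111), Trpm6 by 0.85 (SE 0.219), Calb1 by 0.79 (SE 0.148), Slc12a1 by 0.71 (SE 0.22) and Wnk1 by 0.37 (SE 0.133). Umod gave -0.15 (SE 0.197, adjusted p = 0.564) and Cldn10 -0.25 (SE 0.133, adjusted p = 0.147). Slc12a1, Trpm6 and Wnk1 lost their calls with the pseudogene share as a covariate (adjusted p = 0.279, 0.222 and 0.545). Slc12a1 was not called without TRACK 1 (adjusted p = 0.0914) or TRACK 3 (0.0712), nor Wnk1 without WT 1, 4 or 5 or TRACK 1 or 2 (adjusted p 0.0512 to 0.157). No TRACK library was low-share; against WT 2, the 1 high-share WT library, the mean log2 differences were -1.14 for Kcnj1, -1.31 for Pvalb, -0.90 for Slc12a3, -0.78 for Cldn16, -0.74 for Calb1, -0.62 for Trpm6, -0.59 for Slc12a1 and -0.18 for Wnk1. In a fit of those 4 libraries alone Kcnj1, Pvalb and Cldn16 were called, and the other 5 were not (adjusted p 0.0654 to 0.46).

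Of the 74 related genes tested, 39 fell and 6 rose in TRACK, with a median of -0.44, where 22.6% of all genes fell and 23% rose. Calcium genes of the distal convoluted tubule were lower in 5 of 7 and higher in 1. The lower ones included Slc8a1, the sodium-calcium exchanger (-1.43), and Trpv5, the apical calcium channel (-1.18). Cldn19 (-1.34), the vasopressin receptor gene Avpr1a (-1.27) and Bsnd, the barttin subunit of the chloride channels (-1.17), were the others of the 5 steepest. Tsc22d3 (1.41) and Sgk1 (1.14), both known as corticosteroid-induced, rose most, before the magnesium transporter gene Slc41a1 (0.71), Vdr (0.50) and Esrrg (0.43). Principal cell markers fell in 5 of 6 (423 to 488 CPM in sum against 802 to 957 in WT) and intercalated ones in 4 of 6 (235 to 248 against 295 to 345 CPM). Endothelial markers rose in 6 of 6 (704 to 831 against 429 to 492 CPM), and 4 of 8 early proximal tubule markers fell while 2 rose (5371 to 5567 against 7397 to 8877 CPM). Late proximal tubule markers rose in 6 of 8 (1841 to 3386 against 1065 to 2266 CPM), and of 8 medullary markers 3 fell and 1 rose (256 to 340 against 241 to 466 CPM). Their part in the result was not tested.

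GCERAdT against TRACK asks the same of the ATF4 KO label within the cancer model, among libraries that all express Y-linked genes. The 3 genes that rose were Pvalb, 2.10-fold higher in GCERAdT, and the claudin genes Cldn10 and Cldn16, 1.46-fold and 1.44-fold higher. They were 3 of 10 members, where 2.81% of 11928 genes were called higher, and by edgeR 0 fell (0 also at an unadjusted p of 0.05 and by DESeq2), where 4.28% were called lower and 7.09% in either direction. Pvalb, Cldn10, Cldn16, Kcnj1 and Slc12a3 did not overlap between the groups, against 10.2% of all genes that lay wholly higher. The members' median was 0.36 and that of all genes 0.01.

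The log2 fold changes were 1.07 for Pvalb (SE 0.183, adjusted p = 0.00962, edgeR), 0.54 for Cldn10 (SE 0.114, adjusted p = 0.0228) and 0.53 for Cldn16 (SE 0.119, adjusted p = 0.0297). Slc12a3 gave 0.52 (SE 0.17, adjusted p = 0.0989) and Kcnj1 0.47 (SE 0.139, adjusted p = 0.0719); DESeq2 called both (adjusted p = 0.0139 and 0.00794). Slc12a1 gave 0.24 (SE 0.197), Trpm6 0.16 (SE 0.27), Wnk1 0.11 (SE 0.137), Calb1 -0.002 (SE 0.166) and Umod -0.23 (SE 0.179), the last being the member with the lowest value. Cldn10 and Cldn16 both lost their calls without TRACK 1, TRACK 3, GCERAdT 2 or GCERAdT 3, and Cldn16 also without GCERAdT 1 (adjusted p 0.0506 to 0.107 over these); 1 member was then called in the first 4 cases. Without GCERAdT 4, Kcnj1 was called as well (adjusted p = 0.0406). Cldn16 lost its call with the pseudogene share as a covariate (adjusted p = 0.0798), and both claudin genes with GCERAdT 2 and 3 summed (adjusted p = 0.0707 for Cldn16 and 0.0502 for Cldn10). Among high-share libraries (2 GCERAdT, 3 TRACK) the mean log2 differences were 0.85 for Pvalb, 0.61 for Cldn10 and 0.49 for Cldn16; in a fit of those 5 libraries alone none of the 3 was called (adjusted p 0.0579 to 0.159). TRACK had no low-share library.

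Of the 74 related genes, 4 rose and 6 fell in GCERAdT against TRACK, where 2.81% of all genes rose and 4.28% fell. Their median was 0.10, and that of all genes 0.014. Those that rose were Kcna1 (3.22, from 0.511 ± 0.347 to 4.68 ± 0.972 CPM), a potassium channel of the distal convoluted tubule, Avpr1a (1.41), the calcium-sensing receptor gene Casr (0.72) and Cldn19 (0.53). Tsc22d3 (-1.44), Sgk1 (-1.15), Esrrb (-0.63) and the sodium pump subunit gene Atp1b1 (-0.56) were among the steepest falls. Among markers of other cells, 1 of 6 principal and 0 of 6 intercalated markers rose; of 8 medullary markers 1 rose, Aqp4, and 1 fell, Cryab, the list's sum being 268 to 415 CPM against 256 to 340. Their part in the result was not tested.

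GCERAdT against GCERAd compares TRACK and its absence among mice labelled ATF4 KO. Atf4 itself was 1.43-fold higher in GCERAdT (log2 fold change 0.516, SE 0.114, adjusted p = 0.0108, edgeR), without overlap. The groups thus differed in the targeted transcript as well as in the TRACK label. Cldn10 was the 1 member that rose, 1.32-fold (log2 fold change 0.40, SE 0.095, adjusted p = 0.0151, edgeR) and without overlap, where 9.39% of 11816 genes were called higher and 8.89% lay wholly higher. The 9 others gave log2 fold changes from -0.25 (Calb1, SE 0.23) to 0.33 (Slc12a1, SE 0.113, adjusted p = 0.0636), with a median over the 10 of -0.003. Within low-share libraries (2 against 2) the mean log2 difference of Cldn10 was 0.38, and within high-share ones (2 against 3) 0.40. With the replicate number as a block, 2 members were called, Cldn10 and Calb1, the latter at -0.35 (SE 0.095, adjusted p = 0.031). Without GCERAd 4 and 5 together, 4 were called: Cldn10, Umod (0.26, adjusted p = 0.0478), Slc12a1 (0.37, adjusted p = 0.0493) and Calb1 (-0.54, adjusted p = 0.0124). Without GCERAd 1, Slc12a1 joined Cldn10 (adjusted p = 0.0397), and with the 3 pairs of possible repeat libraries summed Cldn10 was not called (adjusted p = 0.058).

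Of the 75 related genes tested in that comparison 6 rose and 9 fell, with a median of -0.01, where 9.39% of all genes rose and 9.79% fell. Avpr1a (0.63), Prox1 (0.57), Erbb4 (0.52), Cldn19 (0.47) and S100g (0.45) rose most, and Kl (-0.75), Tsc22d3 (-0.70), Egfr (-0.63), Slc9a3 (-0.56) and Pcbd1 (-0.47) fell most. Endothelial markers rose in 4 of 6 (532 to 619 CPM in GCERAdT against 370 to 532 in GCERAd). Medullary markers rose in 3 of 7 and fell in 0 (268 to 415 against 169 to 273 CPM), and early proximal tubule markers fell in 2 of 8 (5259 to 6464 against 8099 to 10320 CPM). Their part in the result was not tested.

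**Figure D2:**
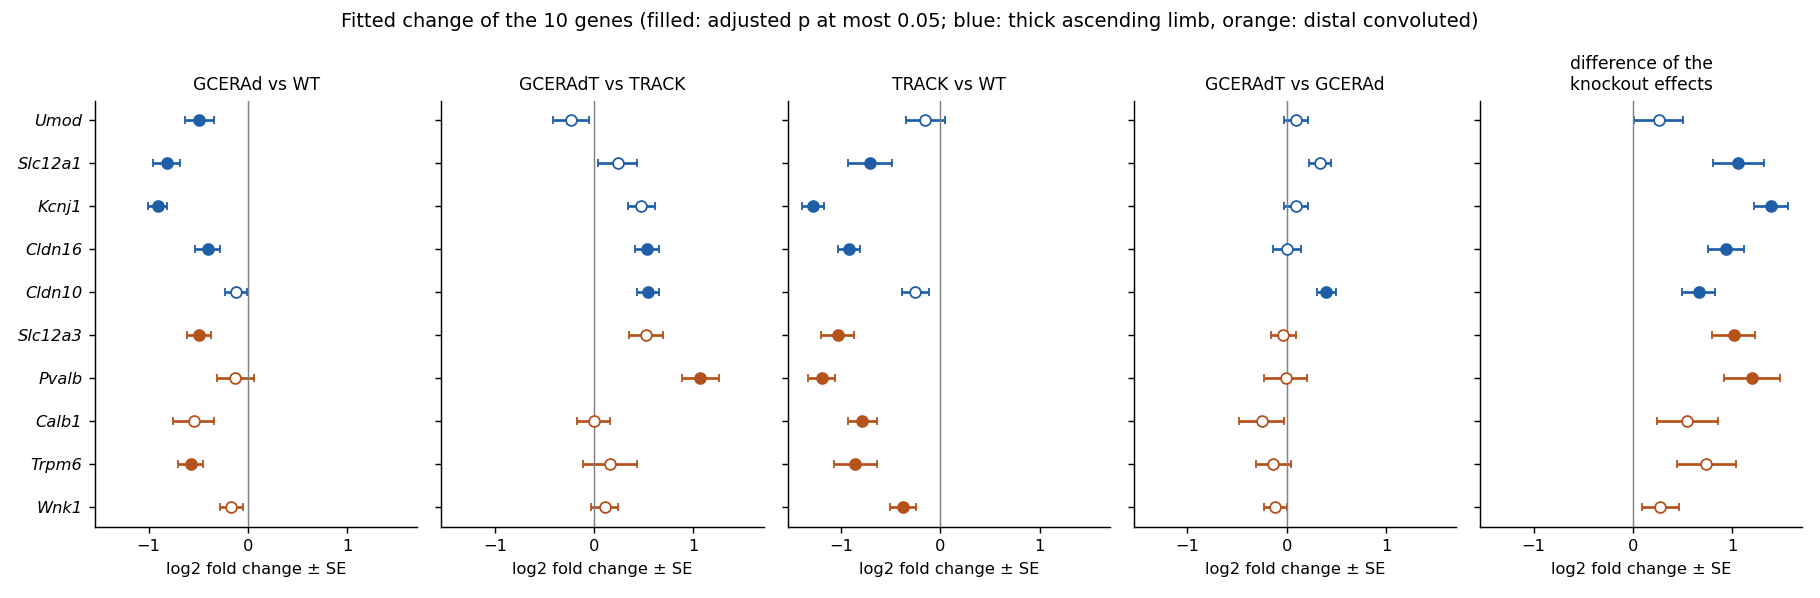
Fitted log2 fold change (x axis, points with SE whiskers) of the 10 genes in the 4 pairwise comparisons and for the difference of the knockout effects; filled points passed adjusted p of 0.05. Kcnj1 lay at -0.91 in GCERAd vs WT, -1.28 in TRACK vs WT and 0.47 in GCERAdT vs TRACK, whereas Umod stayed within 0.49 of 0 in each.

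The difference of the knockout effects, GCERAdT minus TRACK less GCERAd minus WT, was fitted over all 17 samples. It set apart Kcnj1, Slc12a1, Slc12a3 and Cldn16, which were lower in GCERAd than in WT, and Pvalb, Cldn10 and again Cldn16, which were higher in GCERAdT than in TRACK. Of the 10 genes 6 were called, all with a higher value in the TRACK setting, where 12.3% of 12208 genes were called higher. The differences were 1.39 for Kcnj1 (SE 0.17, adjusted p = 2.46e-05, edgeR), 1.20 for Pvalb (SE 0.285, adjusted p = 0.00595), 1.06 for Slc12a1 (SE 0.257, adjusted p = 0.00675), 1.02 for Slc12a3 (SE 0.217, adjusted p = 0.00301), 0.94 for Cldn16 (SE 0.181, adjusted p = 0.00143) and 0.66 for Cldn10 (SE 0.166, adjusted p = 0.00804). Trpm6 gave 0.74 (SE 0.297, adjusted p = 0.0787), Calb1 0.55 (SE 0.304), Wnk1 0.28 (SE 0.189) and Umod 0.26 (SE 0.244). Trpm6 was called without TRACK 3 (adjusted p = 0.026) or GCERAdT 4 (adjusted p = 0.0223). In high-share libraries alone Kcnj1 and Cldn10 were called, and Pvalb, Slc12a3, Cldn16 and Slc12a1 were not (adjusted p 0.165 to 0.215).

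Because WT enters this difference, it carries sex along with the knockout, which cannot be told apart. It also rests on low TRACK values, to a degree that differs between genes. Pvalb was 15.6 ± 3.94 CPM (SD) in GCERAd and 17.0 ± 2.69 in WT, but 7.43 ± 0.309 in TRACK. Its log2 fold change was 1.07 in GCERAdT vs TRACK and -0.13 in GCERAd vs WT, and that of Cldn10 0.54 and -0.12. Slc12a3 (0.52 and -0.49) and Cldn16 (0.53 and -0.40) were nearer even. Kcnj1 (0.475 and -0.91) and Slc12a1 (0.24 and -0.82) leaned to the GCERAd side. Of the 75 related genes 28 had a higher and 5 a lower value, with a median of 0.42, where 12.3% of all genes had a higher and 12.8% a lower one. Avpr1a (1.92), Cldn19 (1.82), Prox1 (1.54), Casr (1.33) and Tfap2b (1.19) led the higher ones, and Tsc22d3 (-2.09), Atp1b1 (-0.52), Klhl2 (-0.47), Kcnj16 (-0.46) and Esrrg (-0.42) the lower ones. Principal cell markers had a higher value in 4 of 6 and intercalated ones in 2 of 6, and late proximal tubule markers a lower value in 6 of 8; their part was not tested.

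Within groups, the 10 genes did not vary as 1 block. After subtraction of each group's mean from log2(CPM + 0.5), the 5 distal convoluted genes rose and dropped together over the 17 samples, with Pearson r from 0.21 to 0.88 over their 10 pairs (median 0.65, none negative). The 5 thick ascending limb genes did so more loosely, with r from -0.19 to 0.65 (median 0.34, 1 pair of 10 negative). Between the sets the 25 pairs had a median r of -0.23, from -0.84 to 0.39, and 19 were negative. Single libraries weighed on these medians: without WT 3 that of the thick ascending limb genes was 0.20 and that between the sets -0.14, and without TRACK 2 the latter was -0.09. WT, GCERAd and GCERAdT each hold low-share and high-share libraries, and depth differs between samples. Subtraction of group means leaves differences of library kind within a group in these values. They are descriptions and carry no test.

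The closest pair was Slc12a3 with Wnk1, its regulator, at r = 0.88, followed by Calb1 with Wnk1 at 0.71 and Trpm6 with Wnk1 at 0.70. In the thick ascending limb, Slc12a1 went with Cldn10 (r = 0.65) and with Kcnj1 (0.61), and Umod with Cldn10 (0.54). Cldn16 was the loosest of its set, at 0.21 with Cldn10 and -0.19 with Umod. The most negative pairs were Cldn10 with Slc12a3 (-0.84), Cldn10 with Wnk1 (-0.72) and Slc12a1 with Slc12a3 (-0.58). Kcnj1, which is expressed in both segments and beyond, had positive r with Calb1 (0.39) and Pvalb (0.35).

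**Figure D3:**
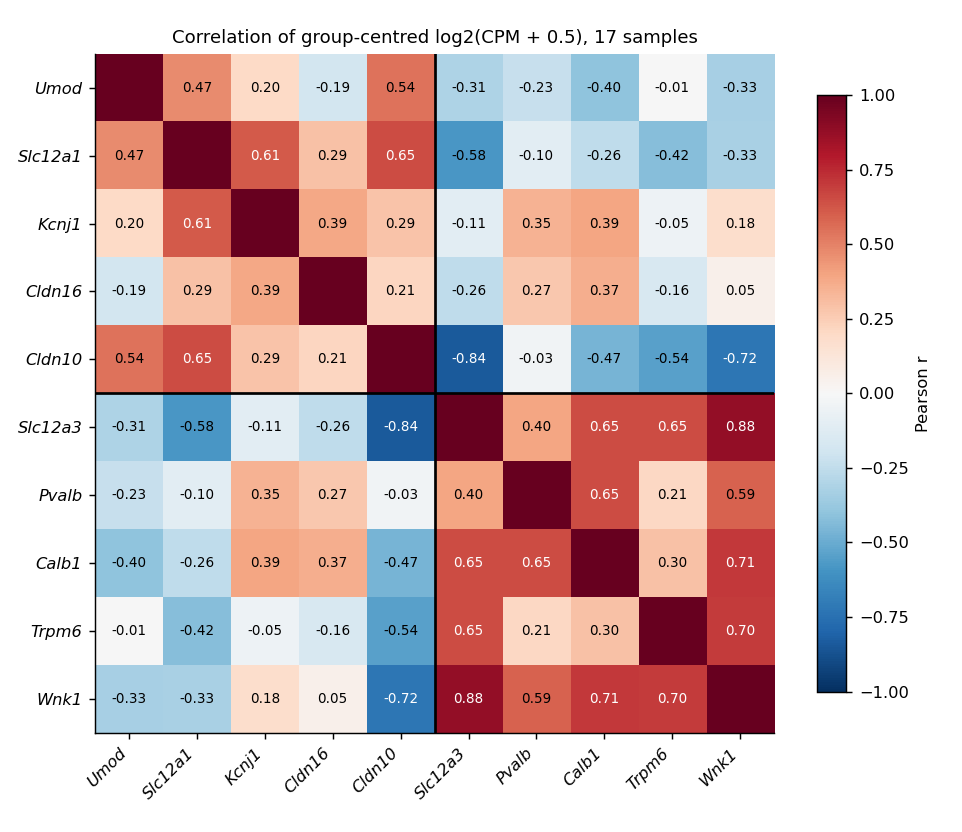
Pearson r between each pair of the 10 genes over 17 samples, from log2(CPM + 0.5) after subtraction of group means; red is positive and blue negative, and the lines divide thick ascending limb from distal convoluted genes. The distal convoluted square holds positive values only (0.21 to 0.88), and the square between the sets is mostly negative, down to -0.84.

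The mean log2 level of the thick ascending limb set and that of the distal convoluted set had r = -0.34 over the 17 samples after subtraction of group means. WT 3 had the highest thick ascending limb deviation (0.32, with -0.14 for the distal convoluted set), and WT 4 the highest distal convoluted deviation (0.32, with -0.14 for the thick ascending limb set). TRACK 2 was likewise split, at 0.17 and -0.28. GCERAdT 4 and GCERAd 5 were low in the distal convoluted set (-0.35 and -0.31) and close to their group's mean in the other (-0.04 and 0.003).

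The medullary marker list went with the thick ascending limb set (r = 0.61) and not with the distal convoluted set (-0.05). Podocyte markers, which lie in cortex only, had r = -0.72 with the thick ascending limb set and 0.02 with the distal convoluted set. Intercalated cell markers had r = -0.56 and -0.16, early proximal tubule markers -0.52 and 0.40, and principal cell markers 0.18 and -0.10. Of the remaining lists, immune markers had r = -0.17 with the thick ascending limb set and 0.56 with the distal convoluted set, the highest of any list with the latter. Fat markers had -0.44 and 0.29, late proximal tubule markers 0.36 and -0.11, and endothelial markers -0.17 and -0.13. Fat and immune values, and single medullary and late proximal ones, lie partly near the floor. Of 5 fat markers 3 had a mean below 1 CPM in WT, 4 in GCERAdT and 1 in GCERAd and in TRACK. Of 6 immune markers 2 did in WT and in GCERAd, and 1 in TRACK and in GCERAdT. Of 10 medullary markers 1 did in GCERAd and in GCERAdT, and of 8 late proximal tubule markers 1 did in WT. The part of these other cells in the members' levels was not tested.

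**Figure D4:**
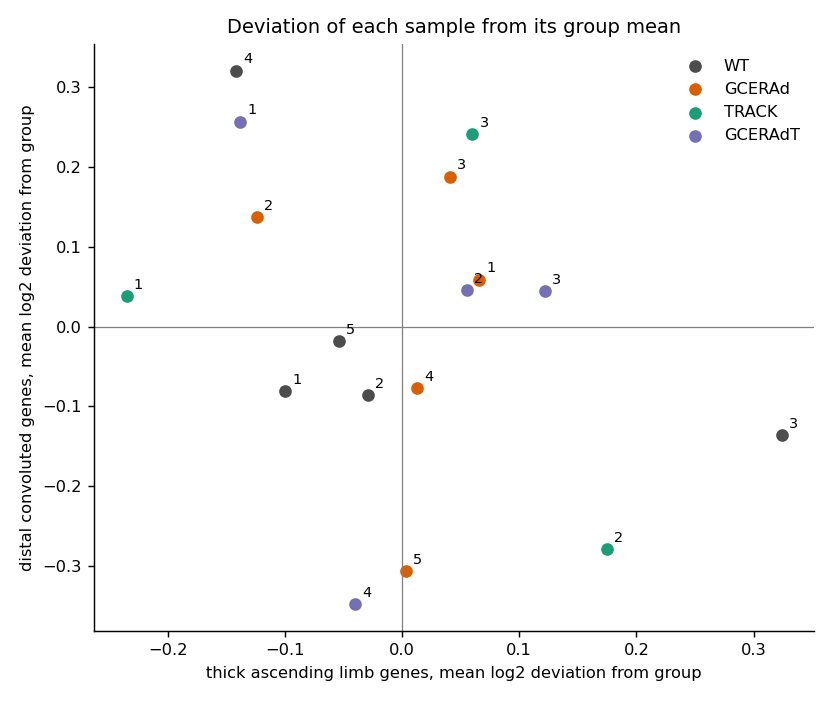
Mean log2 deviation from the group mean of the thick ascending limb genes (x axis) and of the distal convoluted genes (y axis), each point 1 of 17 samples, numbered by replicate and coloured by group. WT 3 lies at 0.32 and -0.14, WT 4 at -0.14 and 0.32, and GCERAdT 4 at -0.04 and -0.35, so that the samples do not follow a rising line.

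Ratios of CPM within a sample set the members against each other, and they differed between groups even for genes of the same set. Cldn10, Kcnj1 and Wnk1 are also expressed in other cells of the cortex, so ratios that use them are not those of 1 segment alone. The ratio of Cldn10 to Kcnj1 was 0.402 to 0.602 in WT, 0.75 to 0.987 in GCERAd, 0.856 to 1.12 in TRACK and 0.944 to 1.21 in GCERAdT, so that all 5 WT samples lay below the 12 others. The ratio of Umod to Kcnj1 was 9.04 to 13.4 in WT, 13.2 to 20.2 in GCERAd, 20.8 to 31.4 in TRACK and 13.6 to 19.7 in GCERAdT, with TRACK above all others. The ratio of Slc12a3 to Slc12a1, 1 gene of each segment, overlapped among the groups: 0.216 to 0.517 in WT, 0.365 to 0.583 in GCERAd, 0.161 to 0.418 in TRACK and 0.276 to 0.483 in GCERAdT.

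Between members of the distal convoluted set, the ratio of Wnk1 to Slc12a3 was 0.848 to 0.976 in WT, 1.09 to 1.18 in GCERAd, 1.34 to 1.64 in TRACK and 0.968 to 1.17 in GCERAdT. WT, GCERAd and TRACK did not overlap on it, with WT lowest and TRACK highest, and GCERAdT overlapped with WT and GCERAd. The ratio of Calb1 to Slc12a3 was 0.661 to 0.818 in GCERAd 1 to 3 and 0.437 and 0.495 in GCERAd 4 and 5, against 0.582 to 0.712 in WT.

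**Figure D5:**
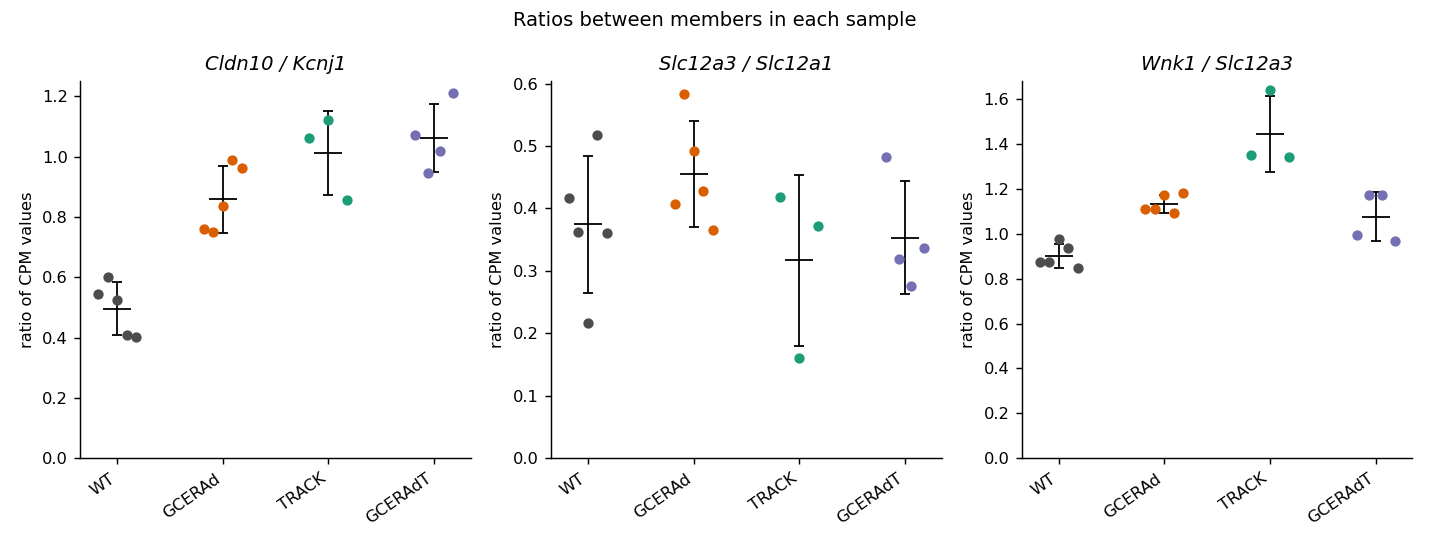
Ratio of CPM values of Cldn10 to Kcnj1, Slc12a3 to Slc12a1 and Wnk1 to Slc12a3 (y axes, from 0) in each sample by group, with mean and SD. For Cldn10 to Kcnj1 the WT samples (0.402 to 0.602) lie below all others (0.75 to 1.21), and for Slc12a3 to Slc12a1 the groups overlap.

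Among 10082 other genes with a mean of at least 5 CPM in every group, those whose group-centred pattern was most like the thick ascending limb mean over the 17 samples were Pou3f3 (r = 0.90), Pla1a (0.89), Arid3a (0.88), Tmem207 (0.87) and Scin (0.87). Pou3f3, a transcription factor, and Tmem207 were in the related lists of that segment. Most like the distal convoluted mean were Tmem52b (0.90), Trpv5 (0.88), Zfp788 (0.88), Gm15318 (0.86) and Hps4 (0.85), of which Tmem52b and Trpv5 were in the related lists of the distal convoluted tubule.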

How the data were processed

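Kidney cortex RNA was sequenced as stranded mRNA libraries, for which the methods give paired ends of 51 bases. In the study's sequencing summary the yield per cluster differs between sample names, so read length may not be the same in all libraries. Those names were not linked to the groups here. The authors aligned reads with STAR to GRCm38 and deposited raw HTSeq counts per gene, after bcl2fastq 2.20 and Cutadapt. The annotation release and strand setting are not given in the sources used here. Counts were tested with edgeR 4.0.16 (quasi-likelihood test, TMM scaling, R 4.3.3), separately for each pair of groups and over all 17 samples for the difference of effects. Genes needed a mean of at least 1 FPKM in either group (any of 4 for the difference), with lengths from GENCODE M21 exons; 360 genes had none. P-values were adjusted by Benjamini-Hochberg over all genes tested and called at 0.05. Levels are TMM-scaled CPM, and group-centred correlations used log2(CPM + 0.5). Scripts were tested on simulated data. Total counts were 53688512 to 71364561 per sample. The lowest counts of Trpm6, Pvalb and Cldn16 in a library were 389, 403 and 421, all in TRACK. For these genes counting error can make up part of the spread between samples. The other members had at least 7191 counts in every library.

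Groups came from the labels, which number a mouse for each sample; where samples came from 1 animal, p-values measure technical spread in part. Members and lists were chosen with earlier results of these data known. Named genes were all 10 members, Atf4, sex-linked genes that separated the groups, the 5 related-list genes with the largest called change each way in each comparison, and the 5 genes most correlated with each set's mean (a few are not reported here); markers were named to describe their list, and Psca and Adipoq after their values were seen. Libraries were parted by a processed pseudogene share of 0.0477%. Same-numbered GCERAd and GCERAdT samples deviated together (r from 0.409 to 0.553 in 4 of 4 pairs over all genes with a mean of at least 5 CPM), so the replicate number was also fitted as a block there; these 4 pairs also share library kind, and with that removed r was -0.349 to 0.553. Alternatives were DESeq2 1.42.0, RLE scaling, other expression minimums, the replicate block, 1 fit of all samples, library kind as a covariate, summed repeat libraries and each sample left out; after the data were seen, summing GCERAdT 2 and 3, leaving out GCERAd 4 and 5, and high-share libraries alone were added.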

Additional observations from a re-analysis of the deposited data

Results flagged for a closer look

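Wnk1 in WT 4, at 674 CPM, stood apart from the other WT samples (457 to 520 CPM) by Dixon's test, the 1 such value among 30 groups of values examined, where chance gives about 1 in 20. Slc12a3, Trpm6 and Calb1 were also highest in WT 4 among WT samples, at 721, 24.6 and 463 CPM. Pvalb was as well, at 20 CPM, but by little over WT 2 (19.2 CPM).

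The knockout contrasts differed between the TRACK and non-TRACK settings by the interaction term of edgeR for 6 genes, on the log2 scale: Slc12a1 (1.06), Kcnj1 (1.39), Cldn16 (0.94), Cldn10 (0.66), Slc12a3 (1.02) and Pvalb (1.20). Sex goes with the WT label in that term and cannot be told apart from the knockout.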

How the results depend on the processing

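No member's called change turned its sign in any alternative, and scaling by RLE moved no member's log2 fold change by more than 0.016. Counts of members called moved as follows from 3 in GCERAdT vs TRACK: 5 by DESeq2, 5 without an FPKM minimum, 1 with 3 repeat pairs summed and 0 in high-share libraries alone. From 1 in GCERAdT vs GCERAd they moved to 2 by DESeq2, 2 with the replicate block, 0 with 3 pairs summed, 4 without GCERAd 4 and 5, and 0 in high-share libraries alone. In TRACK vs WT they moved from 8 to 5 with library kind as covariate and 3 in high-share libraries alone, in GCERAd vs WT from 6 to 0 in high-share libraries alone (1 WT library), and for the difference from 6 to 2 there; these fits have fewer samples. Leaving out a sample gave 4 to 6 members in GCERAd vs WT, 1 to 4 in GCERAdT vs TRACK, 6 to 8 in TRACK vs WT, 1 to 2 in GCERAdT vs GCERAd and 6 to 7 for the difference.

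Related genes called moved from 10 to 20 by DESeq2, 6 with the kind covariate and 4 in high-share libraries alone in GCERAdT vs TRACK; from 15 to 29 with the replicate block, 23 with the kind covariate, 3 with 3 pairs summed, 30 without GCERAd 4 and 5 and 0 in high-share libraries alone in GCERAdT vs GCERAd; from 45 to 20 with the kind covariate and 16 in high-share libraries alone in TRACK vs WT; and in high-share libraries alone from 42 to 1 in GCERAd vs WT and from 33 to 5 for the difference. Leaving out a sample gave 34 to 42, 6 to 17, 35 to 47, 5 to 17 and 25 to 36 in GCERAd vs WT, GCERAdT vs TRACK, TRACK vs WT, GCERAdT vs GCERAd and the difference. It was lowest, at 6, without TRACK 2 or GCERAdT 2 and highest, at 17, without GCERAdT 4 in GCERAdT vs TRACK, and in GCERAdT vs GCERAd 5 to 9 without any 1 GCERAdT library.

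All genes called moved with the replicate block from 3198 to 2106 in GCERAd vs WT, from 5458 to 3431 in TRACK vs WT and from 2266 to 3770 in GCERAdT vs GCERAd. They moved in GCERAdT vs TRACK from 846 to 1562 by DESeq2, 462 with the kind covariate and 498 with 3 pairs summed, in TRACK vs WT to 2776 with the kind covariate, and in GCERAdT vs GCERAd to 1168 with 3 pairs summed. High-share libraries alone gave 98, 221, 1475, 349 and 452 in GCERAd vs WT, GCERAdT vs TRACK, TRACK vs WT, GCERAdT vs GCERAd and the difference. Leaving out a sample gave 2477 to 3246, 379 (without GCERAdT 2) to 1424 (without GCERAdT 4), 4101 to 6041, 1427 (without GCERAdT 2) to 2336, and 2205 to 3303. Same-numbered samples of the other groups did not deviate together (r from -0.644 to 0.179, with 1 of 18 pairs over 0.1), but many of these pairs differ in library kind. With kind removed r was -0.287 to 0.435, highest for WT 2 with GCERAd 2. The replicate block gave 5 members in GCERAd vs WT (Umod lost) and 2 in GCERAdT vs TRACK (Kcnj1 gained, Cldn16 and Cldn10 lost). It gave 8 in TRACK vs WT (Cldn10 gained, Wnk1 lost) and 6 for the difference.

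Without 1 sample each, the median correlations were 0.197 (without WT 3) to 0.47 within the thick ascending limb, 0.551 to 0.679 within the distal convoluted set and -0.287 to -0.087 (without TRACK 2) between them, so the first and last rest in part on single libraries. Why a value moved was not tested where the alternative's own construction does not show it.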
